A study of Mus musculus with 6 samples.

Results

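Collagens are the main structural proteins of the extracellular matrix. Each collagen molecule is a trimer of chains, which come from the same gene or from different genes. This account follows the genes of 37 collagen chains in the Müllerian ducts of mouse embryos. The chains were fixed by gene symbol, by taking every row whose symbol in the platform's annotation is on the list. Of the 37, 35 had a row, 1 each, among 19505 different symbols and 22206 tested transcript clusters, and no row carried the symbols Col7a1 or Col12a1, which are not analysed here. The 35 were read in 4 classes: 11 fibrillar, 9 network-forming, 5 FACIT (fibril-associated, with interrupted triple helices) and 10 other chains. Müllerian ducts were dissected at E17.5, and 1 Affymetrix array was hybridised per embryo. The 3 control embryos were Lats1f/f,Lats2f/f, homozygous for floxed alleles of 2 kinases of the Hippo pathway, and had no Cre. The 3 mutant embryos had the genotype Lats1f/f,Lats2f/f,Amhr2cre/+, so both groups share the floxed alleles and differ in 1 Cre allele at the Amhr2 locus. That locus drives Cre in the cells that express the receptor of anti-Müllerian hormone, which in the duct are mesenchymal, while the arrays read the whole dissected tissue. The labels give neither sex nor litter.

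The LATS kinases phosphorylate YAP and TAZ and so keep these coactivators from the TEAD transcription factors in the nucleus, and several matrix genes are known targets of YAP and TAZ. Fibrillar collagens build the banded fibrils that bear tension, and FACIT collagens sit on the surface of those fibrils. Network-forming collagens make sheets such as the basement membrane under epithelium and endothelium. In the female tract the duct mesenchyme deposits the fibrils, and the basement membrane separates it from the duct epithelium.

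Stretches before the transcription start are shown for the 2 chains that rose, Col11a1 and Col8a1, for Col6a3, the chain with the most negative change, and for Col3a1, whose window holds a TEAD motif although its signal did not rise. The sequences are from RefSeq on GRCm38.p6, written 5′ to 3′ on the gene's strand and ending just before the gene's annotated extent. They lie at chr3:114030290-114030478 (plus strand, Col11a1), chr16:57754738-57754987 (minus strand, Col8a1), chr1:90844002-90844221 (minus strand, Col6a3) and chr1:45311288-45311537 (plus strand, Col3a1). Capitals mark matches, on either strand, of 4 motifs: GGAATG for TEAD, TGANTCA for AP-1, CCAAT for the CCAAT box and TATAAA for the TATA box.
Col11a1: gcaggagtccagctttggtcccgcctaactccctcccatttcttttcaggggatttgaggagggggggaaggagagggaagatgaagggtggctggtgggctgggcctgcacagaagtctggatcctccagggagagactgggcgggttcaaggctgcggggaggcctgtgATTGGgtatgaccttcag
Col8a1: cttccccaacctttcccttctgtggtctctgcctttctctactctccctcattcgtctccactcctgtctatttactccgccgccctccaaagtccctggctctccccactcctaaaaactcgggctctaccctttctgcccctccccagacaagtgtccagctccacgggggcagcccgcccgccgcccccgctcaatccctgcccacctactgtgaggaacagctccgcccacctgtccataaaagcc
Col6a3: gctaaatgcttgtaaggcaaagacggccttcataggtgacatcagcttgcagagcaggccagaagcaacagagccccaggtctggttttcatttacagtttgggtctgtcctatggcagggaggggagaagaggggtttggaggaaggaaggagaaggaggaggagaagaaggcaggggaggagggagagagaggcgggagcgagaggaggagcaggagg
Col3a1: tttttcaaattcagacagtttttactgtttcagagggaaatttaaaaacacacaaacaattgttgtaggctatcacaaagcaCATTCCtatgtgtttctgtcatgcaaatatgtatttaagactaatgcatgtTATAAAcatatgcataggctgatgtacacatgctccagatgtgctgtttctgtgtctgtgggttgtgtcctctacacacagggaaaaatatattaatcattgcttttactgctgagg
The printed stretch of Col11a1 holds a CCAAT box in reverse orientation, those of Col8a1 and Col6a3 hold none of the 4 motifs, and that of Col3a1 holds a TEAD and a TATA match that do not overlap. Promoter windows of 300 bases, 250 before and 50 after a start, were in the table for 28 of the 35 chains. The TEAD motif occurred in those of 4 chains, Col3a1, Col4a6, Col6a2 and Col18a1, and in 14.7% of all 32851 windows. The AP-1 motif occurred in that of 1 chain, Col6a1, at positions -90 to -84 from the start, and in 7.81% of all windows. CCAAT matches were in the windows of 11 chains and 37.4% of all windows, and TATA matches in those of 5 chains and 13.6%. In the Col3a1 window the TEAD match spans positions -168 to -163, and in that of Col11a1 the CCAAT match spans -79 to -75. The printed Col11a1 stretch ends upstream of the start from which these positions are counted. A match is a description of the letters in this window, and its absence says nothing about sites elsewhere.

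Array medians lay between 6.87 and 6.95 on the log2 scale. The background probes of an array, which match no mouse sequence, had medians between 5.35 and 5.88, and a signal under its own array's median is called below background. Control 3 stood apart from the other arrays in the mean signal of urothelial, smooth muscle, and Schwann cell and neuron markers. The mean log2 signal of 8 urothelial genes reached 10.25 there, against 6.06 in the lowest control and 6.33 to 6.43 in the mutants. That of 7 Schwann cell and neuron genes was 8.27 there and at most 6.66 elsewhere. Mutant 3 had the lowest mean over 12 genes of duct and other epithelium, 8.44, against 8.67 to 9.52 on the other arrays. Without control 3 both calls among the chains held, and the changes of 12 chains, none past the threshold, moved by over 1.5 times or in sign. Among these 12, Col10a1 went from -0.61 to -1.09, Col6a1 from -0.25 to -0.42 and Col5a2 from 0.30 to 0.18. Of the duct mesenchyme markers, Tcf21 (12.86 to 13.58), Osr2 (14.34 to 15.64) and Wnt5a (10.85 to 11.53) were above background on all 6 arrays, as were the duct epithelium genes Pax8 (8.57 to 10.23) and Wnt7a (7.10 to 8.03). Of the same 2 lists, Wnt7b and Hoxa13 (duct mesenchyme) and Lhx1 (duct epithelium) were below background on every array. Of 6 kidney and Wolffian duct markers, Hoxb7 (8.93 to 9.19) and Nphs1 (10.18 to 10.54) were above background on all arrays, and 3 were below it on every array. Signals of different genes come from different probes and are not compared with each other.

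Most collagen chains did not pass the test between genotypes. Of the 35 chains, 2 rose and none fell at a limma adjusted p under 0.05, while over all transcript clusters 3.26% passed, 2.59% as rises and 0.666% as falls. At an unadjusted p under 0.05, where 15.3% of all clusters lie (8.49% higher and 6.81% lower), 5 chains were higher in the mutants and 1 was lower, a share near that of all clusters. The chains that rose were Col11a1, by 3.93-fold, and Col8a1, by 3.60-fold. The other 33 had log2 fold changes between -0.77 and 0.64 and limma adjusted p from 0.0677 to 0.994. The median change of the 35 was 0.01, beside -0.01 over all transcript clusters, and lay between -0.02 and 0.04 with each array left out in turn. A change above 0 was seen for 18 chains, or 51.4% beside 48.5% of all clusters. For 29 chains the 95% interval of the change lay within a 2-fold change either way, which held for 84.8% of all clusters. The groups did not overlap for 9 chains, or 25.7%, beside 21.1% of all clusters. Of these, 6 were higher in the mutants (10.9% of all clusters) and 3 lower (10.2%). In bulk tissue, fewer cells of a type and less RNA per cell cannot be told apart.

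**Figure D1:**
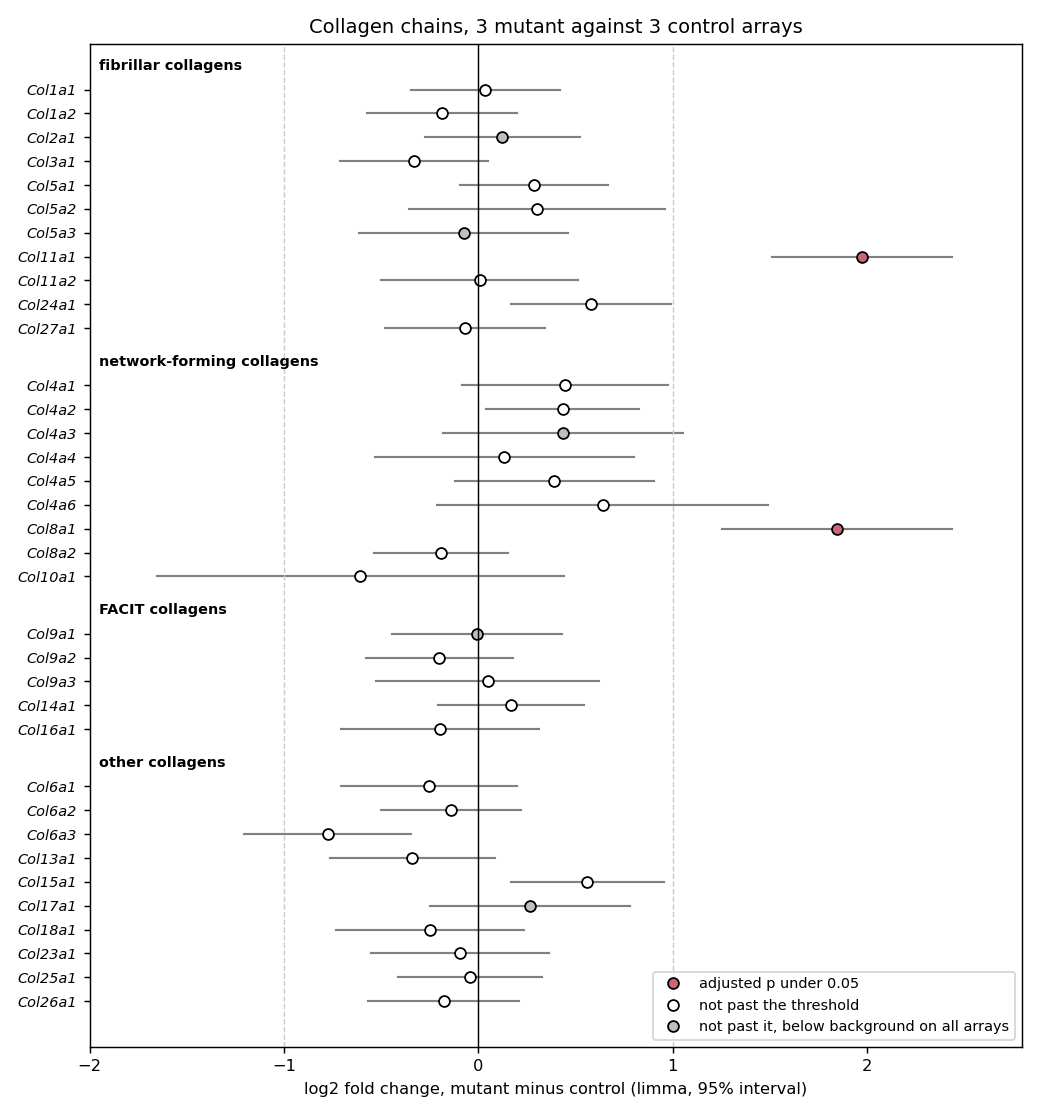
Log2 fold change (horizontal axis, mutant minus control) of each of the 35 collagen chains by class, with its 95% interval from limma and dashed lines at a 2-fold change. Red marks the chains past the threshold, Col11a1 and Col8a1, and grey the 5 below background on all arrays, and the points of the other 33 chains lie between -0.77 and 0.64.

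Among the fibrillar collagens Col11a1 rose and the chains of types I, III and V did not pass. Col11a1 encodes the alpha-1 chain of type XI collagen, a minor fibrillar collagen that sits inside fibrils and limits their width. Its log2 signal was 7.37, 7.58 and 7.48 on the control arrays and 9.75, 9.06 and 9.54 on the mutant arrays. The lowest mutant array stood 1.48 above the highest control. The log2 fold change was 1.97 ± 0.20 (SE, limma adjusted p = 0.00105), and the mutants were higher on 3 of 3 arrays. With each array left out in turn it ranged from 1.82 to 2.17, with limma adjusted p up to 0.00725, and it was 1.98 without control 3.

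Type I collagen, the bulk of most connective tissue fibrils, is a trimer of Col1a1 and Col1a2 chains. The log2 signal of Col1a1 was 15.92, 15.84 and 15.81 in control and 16.11, 15.69 and 15.87 in mutant ducts. The mutant arrays lay on both sides of the controls, and the change was 0.04 with a 95% interval from -0.35 to 0.42. Col1a2 read 15.37, 15.25 and 15.18 in control against 15.20, 14.85 and 15.19 in mutant ducts, a change of -0.19 (interval -0.57 to 0.20) with overlapping groups. The intervals of both chains exclude a 2-fold change.

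Col3a1, which forms the homotrimer of type III collagen in pliable tissues, was at 16.74, 16.72 and 16.44 in control and 16.38, 16.15 and 16.38 in mutant ducts. Every mutant array lay below every control, by at least 0.06, but the change of -0.33 ± 0.17 (SE) did not pass (limma adjusted p = 0.410). Col5a1, the chain present in nearly all type V collagen, which starts fibril assembly, had signals of 11.03, 10.80 and 11.16 in control and 11.35, 11.17 and 11.32 in mutant ducts. The groups were separated by 0.0033, and the change of 0.29 had an interval from -0.10 to 0.67 (limma adjusted p = 0.485). Col5a2, its usual partner, spread widely within both groups, from 9.37 to 10.07 in control and from 9.31 to 10.28 in mutant ducts, with a change of 0.30 ± 0.29 (SE).

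Col24a1, a chain of a developmental fibrillar collagen, was at 6.21, 5.95 and 5.69 in control and 6.42, 6.64 and 6.52 in mutant ducts. Mutant signals were higher on all arrays, though control 3 was below background, and the change of 0.58 ± 0.18 (SE) did not pass (limma adjusted p = 0.160), and it was 0.45 without control 3. Col11a2, the alpha-2 chain of type XI, stayed between 7.17 and 7.57 in control and between 6.98 and 7.78 in mutant ducts, with a change of 0.01 (interval -0.50 to 0.51). Col27a1 differed by -0.07 (interval -0.48 to 0.34). Col2a1, the cartilage collagen whose product also serves as the third chain of type XI, and Col5a3 were below background on all 6 arrays, with log2 signals of at most 4.78 for each. Over the 11 fibrillar chains the median change was 0.04, or 0.23 with signals raised to their array's background, the level that all chains below background then take. By limma 1 chain rose and none fell.

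**Figure D2:**
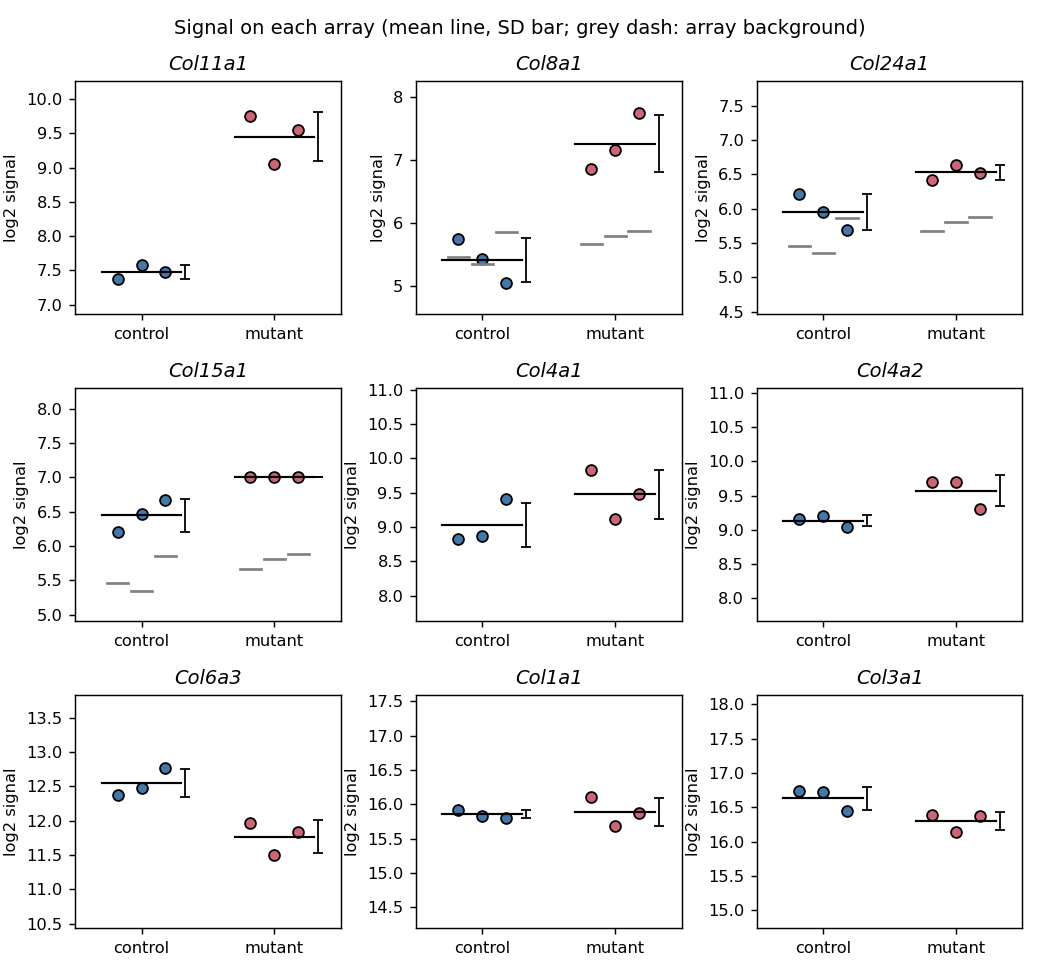
Log2 signal of 9 chains on each of 3 control and 3 mutant arrays, with the group mean as a line, the SD as a bar and each array's background median as a grey dash where it falls on the axis, whose range differs between panels. Col11a1 and Col8a1 are separated by at least 1.12 between groups, Col6a3 is lower in every mutant, and Col1a1 is mixed.

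The network-forming class had 1 chain past the threshold, Col8a1, and 7 of its 9 chains had a change above 0, with a median of 0.43. Type VIII collagen is a short-chain collagen of hexagonal lattices under endothelial and other cells, built from Col8a1 and Col8a2 chains. Col8a1 had log2 signals of 5.75, 5.44 and 5.06 in control and 6.87, 7.17 and 7.76 in mutant ducts. The groups were 1.12 apart, and all mutant arrays were above background, but control 3 was below it. The log2 fold change was 1.85 ± 0.26 (SE, limma adjusted p = 0.00538), and it was 1.58 with signals raised to their array's background. It ranged from 1.60 to 2.05 with each array left out, was 1.67 without control 3, and all 6 of these fits kept the call, with limma adjusted p up to 0.0283. Col8a2 ranged from 9.88 to 10.03 in control and from 9.70 to 9.81 in mutant ducts. Its mutant arrays were all lower, but the change of -0.19 ± 0.15 (SE) did not pass (limma adjusted p = 0.626).

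Type IV collagen is the sheet of the basement membrane, in most tissues made of Col4a1 and Col4a2 chains, whose genes lie head to head and share a promoter region. Col4a1 was at 8.83, 8.87 and 9.40 in control and 9.83, 9.12 and 9.48 in mutant ducts. Control 3 was the highest control and overlapped the mutants. The change of 0.45 ± 0.23 (SE, limma adjusted p = 0.422) was 0.63 without control 3 and did not pass there either (limma adjusted p = 0.254). Col4a2 was at 9.16, 9.20 and 9.04 in control and 9.70, 9.70 and 9.31 in mutant ducts. All mutant arrays were higher, and the change was 0.43 ± 0.17 (SE, interval 0.04 to 0.83), with a limma adjusted p of 0.275.

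Col4a5 and Col4a6, a second head-to-head pair found in kidney and smooth muscle basement membranes, had changes of 0.39 and 0.64 with overlapping groups. Col4a6 was the more variable, from 5.89 in control 2 to 7.40 in control 1, and from 6.82 to 7.69 in the mutants. Col4a3, of the glomerular network, was below background on every array, and Col4a4 was below it on 2 arrays of each group. Col10a1, the collagen of hypertrophic cartilage, was below background except in control 2, where it read 6.07, and its change of -0.61 was -0.01 with signals raised to background and -0.0033 without control 2. Over this class, limma gave 1 rise and no fall, and the median change ranged from 0.27, without control 2, to 0.45 with each array left out.

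None of the 5 FACIT chains passed in limma, and their median change of -0.01 took either sign, from -0.14 to 0.07, with each array left out. Col14a1, which coats interstitial fibrils, had a control mean of 9.69 and a mutant mean of 9.86, a change of 0.17 with an interval from -0.21 to 0.55. Col16a1 ranged from 9.80 to 10.22 in control and from 9.33 to 10.03 in mutant ducts, with a change of -0.20 (interval -0.71 to 0.31). The groups overlapped for both chains. Of the cartilage type IX chains, Col9a1 was below background on all arrays, Col9a2 on 1 control and 3 mutant arrays, and Col9a3 ranged from 6.89 to 7.80 with a change of 0.05.

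The remaining 10 chains had a median change of -0.16, and 8 of them had a change below 0. None passed in limma. Type VI collagen forms beaded microfibrils around cells, with Col6a1, Col6a2 and the large Col6a3 chain in 1 molecule. Col6a3 was at 12.38, 12.48 and 12.77 in control and 11.97, 11.50 and 11.84 in mutant ducts. All mutant arrays were lower, by at least 0.41, and the change was -0.77 ± 0.19 (SE, interval -1.20 to -0.35). It missed the threshold in the limma fit of all clusters (adjusted p = 0.0677). It passed with limma's trended and robust prior (limma adjusted p = 0.0216), with rows under the median signal left out (0.0297) and with signals raised to background (0.00945), but not once an array was dropped, whichever it was (0.108 to 0.182). Without control 3 the change was -0.66.

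Col6a1 read 12.55, 12.73 and 12.16 in control and 12.43, 12.23 and 12.02 in mutant ducts, a change of -0.25 (interval -0.71 to 0.20), or -0.42 without control 3. Col6a2 read 13.24, 13.05 and 13.11 in control and 13.13, 12.90 and 12.95 in mutant ducts, a change of -0.14 (interval -0.50 to 0.22). The groups overlapped for both, and both intervals exclude a 2-fold change.

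Col15a1 and Col18a1 encode the basement membrane zone collagens that carry endostatin-like domains. Col15a1 was at 6.20, 6.46 and 6.68 in control and at 7.01 on mutant 1 and mutant 3, with mutant 2 the lowest of a group whose SD was 0.0054 (n = 3). All mutant arrays were higher, and the change of 0.56 ± 0.17 (SE) did not pass (limma adjusted p = 0.152), and it was 0.68 without control 3. Col18a1 ranged from 11.93 to 12.49 in control and from 11.76 to 12.31 in mutant ducts, with a change of -0.25 ± 0.22 (SE). Among the membrane-spanning collagens, Col13a1 had a change of -0.34, Col23a1 of -0.09 and Col25a1 of -0.04, each with an interval within a 2-fold change. Col17a1, the hemidesmosome collagen of stratified epithelium, was below background on every array. Col26a1 ranged from 11.88 to 12.28 in control and from 11.79 to 12.03 in mutant ducts, with overlapping groups and a change of -0.18 (interval -0.57 to 0.21).

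Read array by array, no class median separated the genotypes. Each chain was set against its own mean over the 6 arrays, and the median of these deviations was taken over a class. For fibrillar chains it lay between -0.07 and 0.07 on the control and between -0.05 and 0.19 on the mutant arrays. For network-forming chains it ran from -0.39 to 0.03 in control and from -0.04 to 0.24 in mutant ducts, and for FACIT chains from -0.20 to 0.14 and from -0.15 to 0.11. For the other chains it was between -0.04 and 0.17 in control and between -0.13 and 0.01 in mutant ducts. These medians overlapped between the groups in all 4 classes. The class means per array did not overlap for 3 of them. They were 9.56 to 9.69 in control and 9.75 to 9.97 in mutant ducts for fibrillar chains, which include Col11a1. For network-forming chains, which include Col8a1, they were 6.94 to 7.18 and 7.42 to 7.48. For the other chains, which include Col6a3, they were 9.33 to 9.39 and 9.18 to 9.29. The FACIT means overlapped, at 7.44 to 7.75 and 7.39 to 7.69. The SD of a chain within a group was 0.20 at the median in control (0.05 to 1.11, highest for Col10a1) and 0.23 in mutant ducts (0.01 to 0.65, highest for Col4a4).

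**Figure D3:**
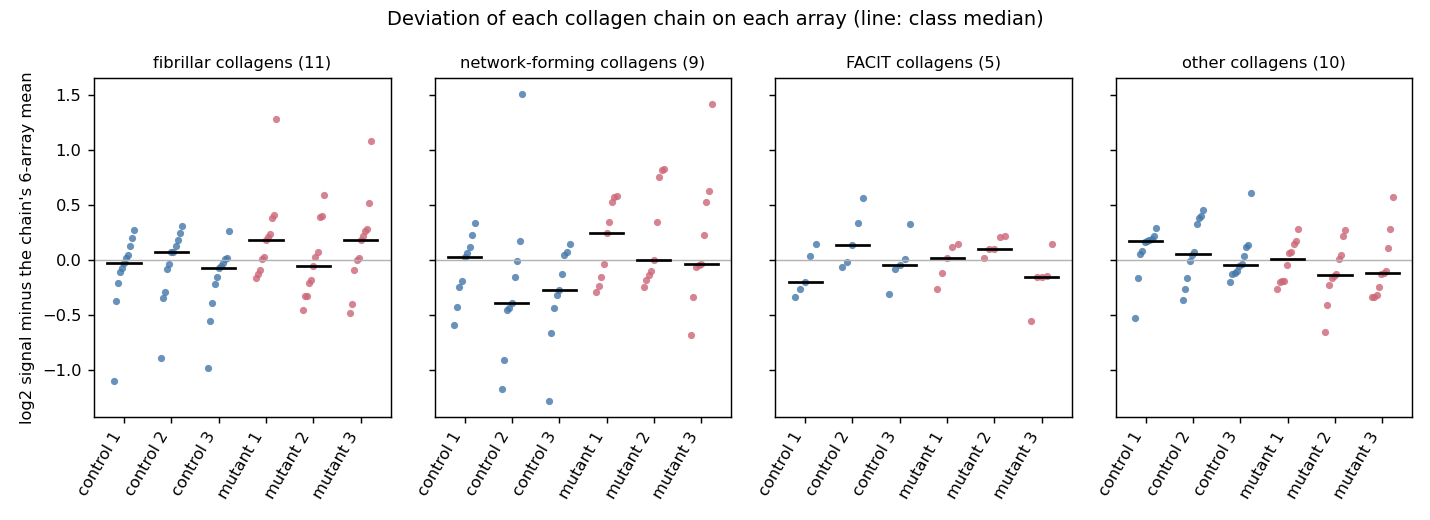
Deviation of each chain's log2 signal from its own mean over 6 arrays (vertical axis), 1 point per chain and array in 4 classes, with the class median as a line. The class medians of control and mutant arrays overlap, from -0.07 to 0.07 and from -0.05 to 0.19 for fibrillar chains, while the points farthest from 0 are those of Col11a1 among fibrillar chains and of Col10a1 and Col8a1 among network-forming chains.

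For chains that assemble together, the difference between the changes of 2 chains was computed for 10 pairs, each as a value per array, and tested by an exact two-sided permutation of the 6 arrays. With 3 against 3 arrays the smallest p this test can give is 0.1, or 0.2 after Benjamini-Hochberg adjustment over the 10 pairs here, so no pair could pass, and the values are a description. The change of Col11a1 exceeded that of Col11a2 by 1.97 and that of Col5a1, with which it can share a fibril molecule, by 1.69. The change of Col8a1 exceeded that of Col8a2 by 2.04. In each of these 3 pairs the mutant arrays lay at least 0.97 above the highest control, at the smallest p. Col6a3 changed by -0.63 relative to Col6a2, also without overlap (exact permutation p = 0.1), and by -0.52 relative to Col6a1, with overlap (exact permutation p = 0.2). For Col1a1 and Col1a2 the difference was 0.22 without overlap (exact permutation p = 0.1). The changes of Col4a1 and Col4a2 differed by 0.01 and those of Col5a1 and Col5a2 by -0.02 (exact permutation p = 1 for each), and Col4a5 with Col4a6 and Col6a1 with Col6a2 also overlapped, with differences of -0.25 and -0.11.

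**Figure D4:**
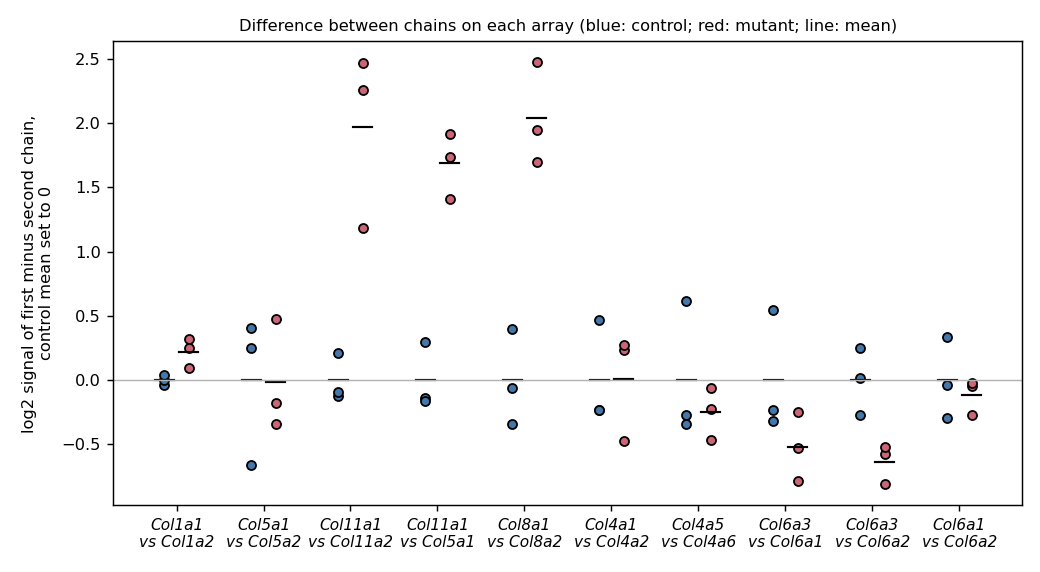
Log2 signal of the first minus the second chain of 10 pairs on each array (vertical axis), with the control mean of each pair set to 0 and group means as lines. The mutant means of Col11a1 against Col11a2, Col11a1 against Col5a1 and Col8a1 against Col8a2 are at 1.97, 1.69 and 2.04, and that of Col4a1 against Col4a2 is at 0.01.

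Genes that act on collagens were read in 4 lists. Over all transcript clusters, 2.59% rose and 0.666% fell by the same limma threshold. Of 26 measured genes of collagen folding, secretion and processing, 6 rose and none fell in limma, with a median change of 0.24. Adamts3, a protease that removes the amino-terminal propeptide of procollagen, rose from 5.57, 5.74 and 5.74 to 7.89, 7.34 and 7.03, a change of 1.74 ± 0.23 (SE, limma adjusted p = 0.00328), with control 3 below background. Plod2, the lysyl hydroxylase that acts on telopeptides, rose by 1.62 ± 0.27 (limma adjusted p = 0.0124). P4ha1, a subunit of the prolyl hydroxylase that stabilises the triple helix, rose by 1.48 ± 0.22, and Lox, which oxidises lysines for cross-links, by 1.30 ± 0.17. Loxl1 (0.94) and P4ha2 (1.45), named after their values were seen, complete the 6. Plod2 missed the threshold when control 1, mutant 1 or mutant 3 was dropped, Loxl1 when control 1, mutant 1 or mutant 2 was, and P4ha2 when mutant 1 or mutant 3 was (limma adjusted p up to 0.0603, 0.0748 and 0.0688), and 3 of the list rose without mutant 1. The folding chaperone Serpinh1 had a change of 0.11 and the procollagen C-proteinase Bmp1 of -0.11, both named after their values were seen.

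None of 9 collagen receptors passed in limma, and their median change was 0.19. Itga2, the alpha-2 integrin subunit, was higher in all mutants with a change of 0.61 ± 0.17 (SE, limma adjusted p = 0.103). Lair1, an inhibitory receptor of leukocytes, had a difference of 0.88 ± 0.31 but was below background on 2 control arrays and 1 mutant array. Adgrg1, an adhesion receptor that binds type III collagen, had 0.82 ± 0.36 and the discoidin receptor Ddr1 0.33 ± 0.19. With rows under the median signal left out, 1 of the list rose.

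Of 21 partners of collagen in fibrils and basement membranes, 4 rose and 1 fell, with a median of 0.05. Thbs1, a matricellular glycoprotein, rose by 2.51 ± 0.21 (SE, limma adjusted p = 0.000310). The laminin chain Lamc1 rose by 1.35 ± 0.16, and asporin (Aspn), a small proteoglycan that binds type I collagen, fell by 1.29 ± 0.21 on the log2 scale. The rises of biglycan (Bgn), another small proteoglycan, by 0.93 ± 0.18, and of Lamb1 by 0.88 ± 0.17, the latter named after its value was seen, held when control 3 was dropped but missed the threshold when any of the other 5 arrays was (limma adjusted p up to 0.101 and 0.0992). The Aspn call was lost without mutant 1 (limma adjusted p = 0.0576). With any of those 5 dropped, 2 partners rose.

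Of 9 collagen-degrading proteases 1 rose and none fell in limma. Mmp9, a gelatinase, rose at least 1.87-fold, where the bound sets the mutant mean of 6.46 against the control arrays' background because all 3 control signals, with a mean of 4.54, were below it (limma adjusted p = 0.00733). Mmp2 had a change of 0.63 ± 0.17 (SE, limma adjusted p = 0.0963), Mmp14 of 0.41 ± 0.18 and the lysosomal collagenase Ctsk of -0.51 ± 0.19. The proteases had a median of 0.25.

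**Figure D5:**
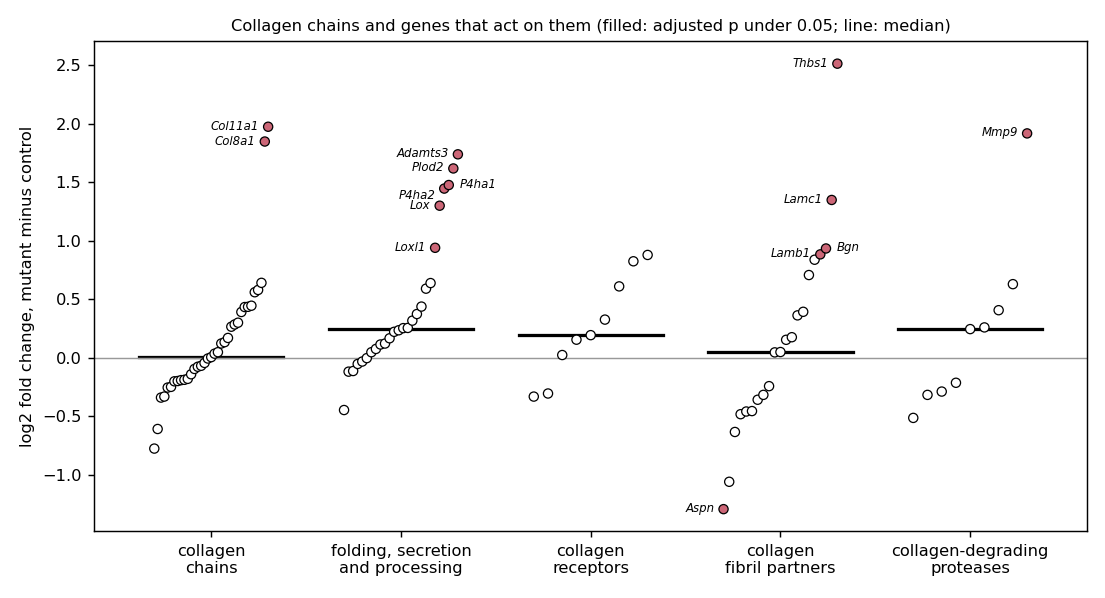
Log2 fold change, mutant minus control, of each measured gene (points) in the collagen chains and in 4 lists of genes that act on them, with list medians as lines and filled points at a limma adjusted p under 0.05. The chains have 2 filled points of 35 and a median of 0.01, and the folding, secretion and processing list has 6 of 26 and a median of 0.24.

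Several marker lists moved with genotype beside the rises of Col11a1 and Col8a1, and their part in these results was not tested. Their counts stand beside 2.59% rises and 0.666% falls over all transcript clusters. Of 11 macrophage markers 8 rose and none fell, and their mean log2 signal was between 8.66 and 8.83 in control and between 9.79 and 10.07 in mutant ducts. None of the 11 was below background on every array. Of 14 immediate early and stress genes 5 rose and none fell, with means of 8.03 to 8.52 in control and 9.28 to 9.35 in mutant ducts. Of 13 cartilage and bone markers none rose and 1 fell, the bone gene Sp7, and 5 were below background on every array. Their mean was 6.10 to 6.35 in control and 6.03 to 6.12 in mutant ducts. Of 9 endothelial markers 2 rose and none fell, and their means were 10.57 to 10.68 in control and 10.61 to 10.81 in mutant ducts. Of 10 smooth muscle markers 1 rose and 1 fell, and their means spread from 8.77 to 11.68 over the controls. These were Tagln, with a log2 change of 2.92 (limma adjusted p = 0.00108), and Synpo2, with -2.64 (limma adjusted p = 0.00286), both named after their values were seen. Of 11 duct mesenchyme markers none rose and 1 fell, Amhr2, the gene whose locus carries the Cre, from 10.88, 10.51 and 10.80 to 6.92, 7.52 and 6.54. At a limma unadjusted p under 0.05, 5 of the 11, Amhr2 included, were lower and 1 was higher. Over all clusters those shares were 6.81% lower and 8.49% higher. The means of that list, which include Amhr2, were 11.44 to 11.56 in control and 10.85 to 11.28 in mutant ducts. Its median deviations, taken as for the classes, overlapped, at 0.01 to 0.21 in control and -0.34 to 0.10 in mutant ducts. Of its genes, 2 were below background on every array.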

How the data were processed

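The values are log2 signals deposited by the authors, 1 column for each array. Transcriptome Analysis Console 4.0 is named in the submitters' processing notes. The sources used here do not give the summarisation, the normalization or the genome build. All 22206 transcript clusters entered 1 linear model of genotype alone (limma 3.58.1, lmFit then eBayes, under R 4.3.3), and p-values were adjusted by Benjamini-Hochberg over all of them, with a threshold of 0.05. Control rows were left out. Symbols came from the platform's annotation (19572 clusters had 1 symbol, 2634 none). Where a symbol had several rows, the one with the highest mean was used.

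Named with values were chains past the threshold, those of types I, III, V, VI, XI and Col4a1 and Col4a2, non-overlapping chains with a change of at least 0.5, and the 4 smallest p of each list. Changes and ranges of other chains were printed after their values were seen. The chains and lists were chosen with earlier results of these data known. Intervals are at 95%. Precision is limited by 6 arrays. The limma p-values set each change against the variation between these embryos, with each cluster's variance drawn toward a value shared by all clusters. The fit was tested on simulated data with 200 changed rows. It recovered 44% of simulated log2 changes of 1 and 90% of those of 2, so a chain that did not pass may still differ. Replicate numbers do not pair the samples. The alternatives tried are given with the sensitivity of the results. Python 3.11.15 and matplotlib 3.10.9 made the plots.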

Additional observations from a re-analysis of the deposited data

How the results depend on the processing

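The rises of Col11a1 and Col8a1 kept their direction in every fit that included them, and their calls too. The median-signal filter leaves Col8a1 out, so 1 chain rose there. Chains that fell numbered 0 in the deposited-scale fit and 1 (Col6a3) with the median-signal filter, the trended and robust prior, and signals floored at background, an alternative added after seeing the data. With each array left out, 2 chains rose and 0 fell.

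The replicate number as a block kept 2 rises and 0 falls of chains, with 633 clusters called. Same-numbered arrays deviated with correlations of 0.01, 0.04 and -0.0030, so they share a number only.

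Over all clusters, 723 were called, 575 up and 148 down. With each array left out these were 360 to 697, 305 to 565 and 55 to 132. Falls were 257 with the median-signal filter and 243 with the trended prior. Floored signals gave 1396, 929 and 467, and a threshold of 0.01 gave 299, 260 and 39. The median over the 35 chains was 0.065 with array weights, and the fibrillar median was 0.23 with floored signals, where a chain below background on all arrays takes the difference between the groups' background levels, 0.23.

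In the lists, receptor rises numbered 1 and partner falls 2 both with the median-signal filter and with floored signals, and protease rises 2 with the trended prior and with floored signals. At 0.01, 3 processing genes and 2 partners rose and 0 partners fell. With each array left out, 3 to 6 processing genes and 2 to 4 partners rose and 0 to 1 partners fell.

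Of the 35 chains, 24 kept their sign in all fits, and the other 11, none of them called, changed it in at least 1 of the alternatives. Col1a1 was -0.019 with quantile normalization, Col9a1 0.013 with a common median, 0.065 with array weights and 0.23 floored, Col5a3 0.048 with array weights and 0.23 floored, and Col9a2 0.0061 floored. With each array left out, the changes ran from -0.072 to 0.14 for Col1a1, -0.24 to 0.33 for Col4a4, -0.30 to 0.15 for Col5a3, -0.14 to 0.16 for Col9a1, -0.11 to 0.35 for Col9a3, -0.19 to 0.21 for Col11a2, -0.32 to 0.028 for Col16a1, -0.20 to 0.084 for Col23a1, -0.14 to 0.018 for Col25a1 and -0.20 to 0.017 for Col27a1. Except where the construction shows it, the cause was not tested.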
